A study of Mus musculus with 16 samples.

Results

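The antizymes Oaz1, Oaz2 and Oaz3 and the antizyme inhibitors Azin1 and Azin2 were followed in hair follicle stem cell (HFSC) organoids. These 5 genes were chosen by name for their place in the feedback on ornithine decarboxylase and make up 5 of the 32989 genes listed. The organoids were 3D-3C cultures of skin cells from C57BL/6J mice, kept for 2 weeks. Sorting by integrin α6 and CD34 then parted the progenitors (α6+CD34−) from the HFSCs (α6+CD34+). During 72 h the organoids had either no treatment or N1-acetylspermidine, abbreviated N1-AcSpd, a polyamine carrying an acetyl group. Titles of the untreated libraries call them WT (wild type), and since the treated libraries come from the same mice, the WT label marks the absence of treatment and no difference in genotype. Each of 4 mice gave 1 library in each of the 4 groups (untreated CD34−, N1-AcSpd CD34−, untreated CD34+ and N1-AcSpd CD34+), so that the 16 libraries share 4 animals, and the animals' ages were not given per library in the sources used here. Both sorted populations came from the same culture, so a CD34− cell here is a cultured progenitor and not a cell taken directly from skin.

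Polyamines are small, positively charged molecules that dividing cells need, and ornithine decarboxylase (encoded by Odc1) makes the first of them, putrescine. When polyamines are plentiful, ribosomes shift frame on antizyme mRNA and full-length antizyme is made. Antizyme binds ornithine decarboxylase, sends it to the proteasome without ubiquitin and lowers polyamine uptake. Antizyme inhibitors resemble ornithine decarboxylase but do not make putrescine; they bind antizyme and release the enzyme. Much of this loop acts on protein, and the libraries measured mRNA only.

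The frameshift site is shown first because it defines the antizymes and is shared by the pair of antizymes measured well here. Both windows were read from GENCODE transcripts on GRCm38, 5′ to 3′ on the plus strand, and lie in exons. Capitals mark TCCTGAT, in which TGA is the stop codon of the upstream frame that the shifted ribosome passes.
Oaz1, chr10:80828280-80828309: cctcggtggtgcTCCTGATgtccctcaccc
Oaz2, chr9:65686257-65686286: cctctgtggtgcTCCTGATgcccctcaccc
The windows were identical at 28 of 30 bases. In 3 of 6 coding transcript models of Oaz1 and 2 of 4 of Oaz2, the same window stood with 1 base of the capitals left out, which is how the annotation writes the shift. The window as printed stood in 1 of the 6 coding models of Oaz1 and in 0 of the 4 of Oaz2. The Oaz2 sequence was thus read from models not annotated as coding.

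The 3′ ends of mRNA were sequenced with UMIs (unique molecular identifiers), short random tags that let each captured molecule be counted once. Library totals ran from 15480075 to 29074855 UMIs, and levels are given as CPM, counts scaled to one common library total after TMM scaling, which evens out libraries by the bulk of their genes. The sort was visible in its marker, since Cd34 did not exceed 3.65 CPM in any CD34− library and was at least 43.4 CPM in every CD34+ library. The 8 HFSC markers were all listed, of which Lgr5 and Tcf7l1 overlapped between the cell types in each condition. The summed level of the 8 was 64.0 to 93.6 CPM in CD34− against 338 to 590 CPM in CD34+ libraries. Much of it came from Krt15, with 27.3 to 42.7 against 239 to 447 CPM. The 5 suprabasal (differentiating keratinocyte) markers moved the other way, with sums of 71.7 to 121 CPM in CD34− and 34.8 to 46.5 CPM in CD34+ libraries, and their part in the cell type differences below was not tested. In such bulk samples, fewer cells of a type and less RNA per cell cannot be told apart. Summed fibroblast markers stayed at or below 1.52 CPM and immune markers at or below 4.99 CPM in every library. Summed melanocyte markers lay between 28.0 and 36.1 CPM, with Tyrp1 at 0 in 13 libraries and Tyr in 12. Of the endothelial markers Cdh5 was not listed and Kdr was at 0 in 11 libraries, whereas Pecam1 lay between 1690 and 2050 CPM in all of them.

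Oaz1 stood far above the other members. Averaged over all 16, it reached 733 CPM, or 287 CPM per kb of exon. Odc1 followed with 53.1 CPM (15.6 per kb), then Oaz2 with 15 CPM (5.02 per kb), Azin1 with 7.87 CPM (1.26 per kb) and Azin2 with 2.02 CPM (0.501 per kb). Oaz3 was last with 0.192 CPM (0.0443 per kb). The order per kb was the same in 16 of 16 libraries at every step. Tags from 3′ ends need not grow with length, and the order of the mean CPM was the same too. Per kb the closest neighbours were Azin1 and Azin2, with a ratio from 1.31 to 3.91. Without division by length, Azin1 UMIs were 2.04 to 6.08 times Azin2 UMIs. Oaz2 and Azin1 could then lie closer, as with 269 and 219 UMIs in mouse 3 of the untreated CD34− group. Per kb, Oaz1 made up 97.9 to 98.7% of the antizyme signal in each library, and Azin1 56.8 to 79.6% of the inhibitor signal. In plain UMIs the shares were 97.5 to 98.5% for Oaz1 and 67.1 to 85.9% for Azin1.

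**Figure D1:**
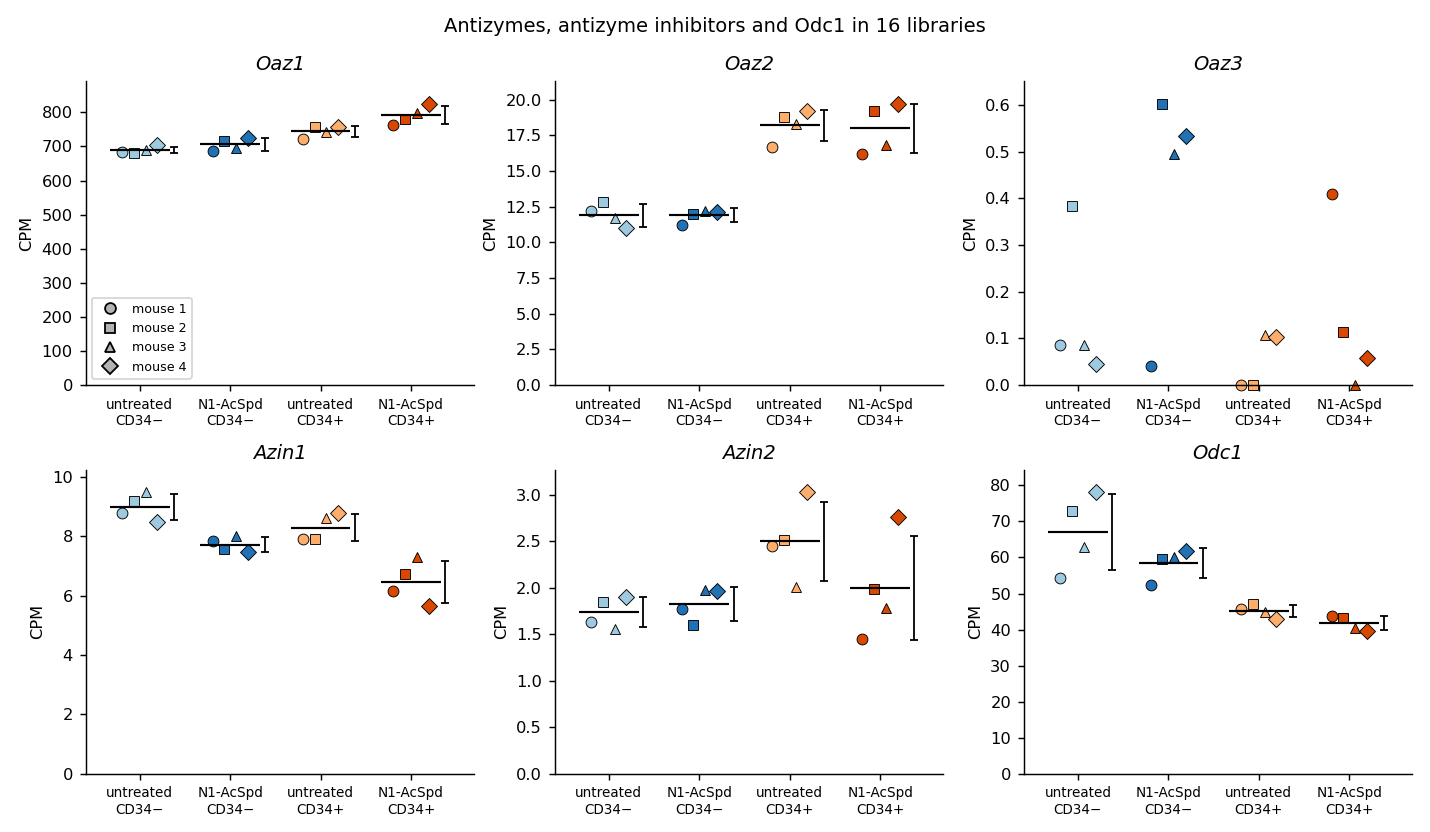
CPM of the 5 members and Odc1 (vertical axes, linear from 0) in each of the 16 libraries, by group, with 1 marker shape per mouse. Lines show the group mean and bars the SD (n = 4), left out for Oaz3 because of its low counts. Oaz2 lies at 11 to 12.8 CPM in all CD34− and at 16.2 to 19.7 CPM in all CD34+ libraries.

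The first question was how the members differ between HFSCs and progenitors. Genes were tested with edgeR's quasi-likelihood test over the 19049 genes whose count averaged 5 or more, and a gene was called at a Benjamini-Hochberg adjusted p under 0.05. Oaz3 fell below that count, which left 4 members tested. In untreated cells 3 of the 4 were called, all higher in CD34+ cells (Oaz1, Oaz2 and Azin2), where 32.1% of all tested genes were called and 16.0% were called higher. In N1-AcSpd cells 3 of the 4 were called, Oaz1 and Oaz2 higher and Azin1 lower, against 33.1% of all genes called, 16.4% higher and 16.7% lower. The CPM ranges of the groups did not overlap for 3 members in each condition, and neither did they for 32.2% of all genes in untreated and 34.4% in N1-AcSpd cells.

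Oaz2 showed the largest cell type difference of the 4 tested members, being about 1.5 times as high in HFSCs. It encodes the second broadly expressed antizyme, which like antizyme 1 restrains ornithine decarboxylase and polyamine uptake (ENSMUSG00000040652, chromosome 9, 65668001 to 65690300, plus strand, GRCm38). In the order of mice 1 to 4, untreated CD34− libraries held 12.2, 12.8, 11.7 and 11 CPM, and untreated CD34+ libraries 16.7, 18.8, 18.3 and 19.2 CPM. N1-AcSpd CD34− libraries held 11.2, 12, 12.2 and 12.1 CPM, and N1-AcSpd CD34+ libraries 16.2, 19.2, 16.8 and 19.7 CPM. Every CD34+ library was thus above every CD34− library, with and without N1-AcSpd. The log2 fold change was 0.61 ± 0.072 (SE, n = 4 against 4; edgeR adjusted p = 1.54e-05) in untreated and 0.60 ± 0.071 (adjusted p = 1.69e-05) in N1-AcSpd cells, the same sign in 4 of 4 mice each time. Between 201 and 437 UMIs per library stood behind these values. Leaving out any library or mouse kept the call, with log2 fold changes from 0.55 to 0.67 in untreated and from 0.55 to 0.66 in N1-AcSpd cells.

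Oaz1 was higher in HFSCs too, but by a small margin that its depth allowed to be measured. It encodes antizyme 1, the main antizyme of most tissues (ENSMUSG00000035242, chromosome 10, 80826656 to 80829290, plus strand). Counts per library ran from 10673 to 20541 UMIs. In the same order, untreated CD34− libraries held 685, 682, 691 and 704 CPM, and untreated CD34+ libraries 723, 758, 743 and 758 CPM. With N1-AcSpd the CD34− libraries held 686, 715, 697 and 726 CPM, and the CD34+ libraries 763, 782, 798 and 826 CPM. Groups of the 2 cell types did not overlap in either condition. CD34+ cells exceeded CD34− cells by 7.97% in untreated cells (log2 fold change 0.11 ± 0.027, edgeR adjusted p = 0.00616) and by 12.2% in N1-AcSpd cells (0.17 ± 0.027, adjusted p = 0.00028), in 4 of 4 mice each. Without mouse 2 the untreated difference was 0.096 and missed the threshold (edgeR adjusted p = 0.0807).

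A change this small depends on how libraries are scaled and how near-identical copies are counted. When libraries were scaled by their totals and not by TMM, the median gene moved to 0.14 (untreated) and 0.11 (N1-AcSpd) on the log2 scale, from 0.022 and −0.0068, and Oaz1 moved with it to 0.23 and 0.28. Genes called higher and lower then numbered 4843 and 1756 in untreated and 4766 and 1895 in N1-AcSpd cells, against 3044 and 3068, and 3121 and 3184, with TMM. The processed pseudogene Oaz1-ps (chromosome 17, 17345456 to 17346140, minus strand) held 3020 UMIs in mouse 2 (N1-AcSpd CD34−) and 2222 UMIs in mouse 4 (untreated CD34+), and 0 UMIs in the other 14 libraries. Oaz1 itself stood at 715 and 758 CPM in those libraries, inside the range of their groups. Summing both genes gave a log2 fold change of 0.16 in untreated cells (edgeR adjusted p = 0.0483) and of 0.11 in N1-AcSpd cells, where the call was lost (adjusted p = 0.177). How the authors' counting divided reads between Oaz1 and the pseudogene is not given in the sources used here, so the size of the Oaz1 difference is uncertain to that extent.

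Mir1982, annotated as a microRNA gene on the same strand inside Oaz1 (chromosome 10, 80828797 to 80828870), held 402 to 813 UMIs per library. That was 3.60 to 4.19% of the Oaz1 count in each library. Its log2 fold change between cell types was 0.17 ± 0.042 (edgeR adjusted p = 0.00613) in untreated and 0.16 ± 0.042 (adjusted p = 0.00729) in N1-AcSpd cells. Those tags cannot be told from Oaz1 tags by position.

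Azin2, the rarer inhibitor, was 44.2% higher in untreated HFSCs, and the difference was not called in N1-AcSpd cells. It encodes antizyme inhibitor 2, best known from brain and testis (ENSMUSG00000028789, chromosome 4, 128930233 to 128962442, minus strand). Untreated CD34− libraries held 1.63, 1.85, 1.56 and 1.90 CPM, and untreated CD34+ libraries 2.45, 2.52, 2.01 and 3.03 CPM. The lowest CD34+ library lay just above the highest CD34− one. N1-AcSpd CD34− libraries held 1.77, 1.60, 1.98 and 1.97 CPM, and N1-AcSpd CD34+ libraries 1.45, 1.99, 1.78 and 2.76 CPM, and these overlapped. The log2 fold change was 0.53 ± 0.18 (edgeR adjusted p = 0.0354) in untreated and 0.12 ± 0.18 (adjusted p = 0.774) in N1-AcSpd cells. The difference between the conditions was itself not called (interaction log2 fold change −0.41 ± 0.25, edgeR unadjusted p = 0.128). Only 29 to 59 UMIs per library stood behind Azin2. The untreated call was lost with DESeq2 (adjusted p = 0.0634), without a filter on low counts (0.0597 by edgeR), after thinning to the smallest library (0.0959), and in 10 of the 20 fits that left out a library or a mouse (adjusted p up to 0.125). Those 10 left out each of the 4 mice, the untreated CD34− libraries of mice 1, 2 and 3, or the untreated CD34+ ones of mice 1, 2 and 4.

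Azin1 was called lower in HFSCs with N1-AcSpd and not called in untreated cells, while the difference between the conditions was itself not called (interaction log2 fold change −0.15 ± 0.10, edgeR adjusted p = 1). It encodes antizyme inhibitor 1, which holds antizyme more tightly than ornithine decarboxylase does (ENSMUSG00000037458, chromosome 15, 38487427 to 38519266, minus strand). Untreated CD34− libraries held 8.78, 9.20, 9.49 and 8.48 CPM, and untreated CD34+ libraries 7.91, 7.90, 8.62 and 8.79 CPM, with overlap. N1-AcSpd CD34− libraries held 7.84, 7.56, 8.02 and 7.47 CPM, and N1-AcSpd CD34+ libraries 6.17, 6.72, 7.30 and 5.64 CPM, all lower. In N1-AcSpd cells the log2 fold change was −0.26 ± 0.074 (edgeR adjusted p = 0.0142, lower in 4 of 4 mice), and in untreated cells −0.11 ± 0.074 (adjusted p = 0.304). With library totals these became −0.14 (adjusted p = 0.184) and 0.0026 (0.994), so the Azin1 cell type difference held only relative to the bulk of genes. It was also lost without mouse 1 (edgeR adjusted p = 0.111), without mouse 4 (0.0586), without mouse 1 of the N1-AcSpd CD34+ group alone (0.0604) and with only the compared groups in the fit (0.0668).

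**Figure D2:**
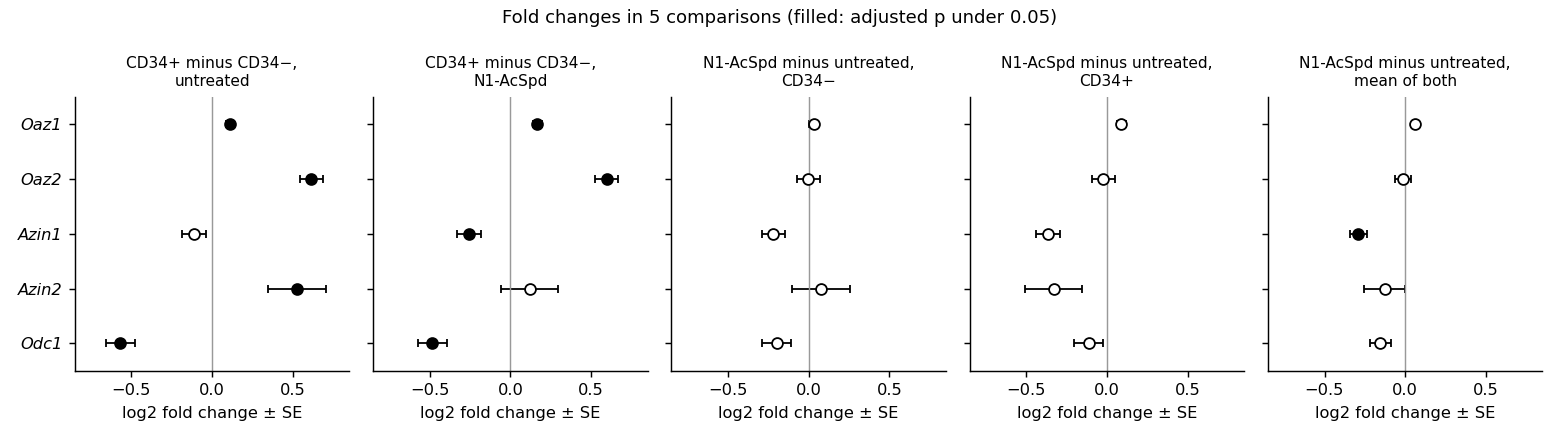
Log2 fold change (horizontal axes) with its SE for the 4 tested members and Odc1 in 5 comparisons, from 1 edgeR fit of 16 libraries. Filled points were called at an adjusted p under 0.05: Oaz1 and Oaz2 to the right in both cell type panels, Odc1 to the left in both, Azin2 to the right in untreated cells, Azin1 to the left in N1-AcSpd cells, and Azin1 to the left in the averaged treatment panel.

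Odc1, the target of the antizymes, ran opposite to Oaz1 and Oaz2 between the cell types (ENSMUSG00000011179, chromosome 12, 17544794 to 17551505, plus strand). Untreated CD34− libraries held 54.2, 72.8, 62.9 and 78.1 CPM, and untreated CD34+ libraries 45.8, 47.0, 44.9 and 43.0 CPM. N1-AcSpd CD34− libraries held 52.3, 59.7, 60.0 and 61.7 CPM, and N1-AcSpd CD34+ libraries 43.9, 43.2, 40.5 and 39.7 CPM. All 8 CD34+ libraries were below all 8 CD34− libraries. Odc1 differed by −32.6% in untreated HFSCs (log2 fold change −0.57 ± 0.090, edgeR adjusted p = 0.000254) and by −28.5% in N1-AcSpd HFSCs (−0.48 ± 0.090, adjusted p = 0.000777).

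The second question was what 72 h of N1-AcSpd did to the members in each cell type. In CD34− cells edgeR called 0 of the 4 tested members and 0.546% of all genes. An unadjusted p under 0.05 was reached by 1 member and by 13.4% of all genes, while DESeq2 called 0 of the 3 members it gave an adjusted p (Azin2 had none) and 5.32% of the genes it adjusted, and edgeR with mouse as a block 0 members and 2.14% of genes. In CD34+ cells edgeR called 0 of the 4 members and 0.299% of all genes. Here 2 members and 13.0% of genes had an unadjusted p under 0.05. By DESeq2, 1 of the 2 members it adjusted was called and 6.33% of such genes, Azin1 (unadjusted p = 0.000727 by that tool) and Azin2 having no adjusted p. The blocked fit called 1 member and 0.924% of genes. Averaged over both cell types, Azin1 was called lower and the other 3 were not, where 4.95% of all genes were called and 2.15% were called lower. DESeq2 and the blocked fit each called 2 members there, against 10.2% and 8.22% of genes. The interaction, the difference between the treatment effects of the cell types, was called for 0 members and 0% of genes by edgeR, also with the block. None of the 4 had an unadjusted p under 0.05 for it, as 4.03% of genes did, and DESeq2 called 0 members and 0.384% of genes.

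Marker sums of treated and untreated libraries overlapped in CD34− cells for the suprabasal list but not for the HFSC list, with 84.4 to 93.6 CPM untreated and 64.0 to 77.6 CPM with N1-AcSpd for the latter. Suprabasal markers held 71.7 to 87.1 CPM untreated and 78.8 to 121 CPM with N1-AcSpd. In CD34+ cells the suprabasal sums were 34.8 to 38.1 CPM untreated and 39.6 to 46.5 CPM with N1-AcSpd, without overlap, and the HFSC sums 437 to 590 and 338 to 516 CPM. Of the suprabasal markers only Ivl was without overlap there, at 8.59 to 10.3 CPM untreated and 13.2 to 16.9 CPM with N1-AcSpd. Krt1, Krt10, Lor and Flg each overlapped. The part of these marker lists in the treatment values of the members was not tested.

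Azin1 was the member that fell with N1-AcSpd, by 18.3% on average over the cell types (log2 fold change −0.29 ± 0.052, edgeR adjusted p = 0.00818). As listed above, the 4 N1-AcSpd libraries lay below the 4 untreated ones in each cell type without overlap, which held for 9.05% of all genes in CD34− and 6.81% in CD34+ cells. Taken separately, the log2 fold change was −0.22 ± 0.074 in CD34− cells (edgeR adjusted p = 0.2) and −0.36 ± 0.074 in CD34+ cells (adjusted p = 0.0618), with 4 of 4 mice lower in both. With mouse as a block, as the shared animals allow, Azin1 was called in CD34+ cells (log2 fold change −0.37, edgeR adjusted p = 0.0308), as it was when mouse 3 of the N1-AcSpd CD34+ group was left out (−0.43, adjusted p = 0.0371). The averaged call was lost without mouse 1 (adjusted p = 0.0732) and without mouse 2 (0.0637), where the log2 fold changes were −0.30 each. Azin1 counts ran from 96 to 219 UMIs per library.

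Oaz1 was 2.27% higher with N1-AcSpd in CD34− cells (log2 fold change 0.032 ± 0.027, edgeR adjusted p = 0.698) and 6.26% higher in CD34+ cells (0.088 ± 0.027, adjusted p = 0.198). The sign was the same in 4 of 4 mice in both cell types, and in CD34+ cells the ranges did not overlap. The averaged difference, 0.060 ± 0.019, missed the threshold in the fit without mouse (edgeR adjusted p = 0.0871) and passed it with mouse as a block (0.0246). DESeq2 called it in CD34+ cells (adjusted p = 0.00527) and on average (0.00604). Summed with its pseudogene, the log2 fold change was 0.086 in CD34− and 0.033 in CD34+ cells (edgeR adjusted p = 0.593 and 0.918), so that the order of the cell types turned, and the average had an adjusted p of 0.48.

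For Oaz2 no response was detectable, with log2 fold changes of −0.0028 ± 0.071 in CD34− and −0.022 ± 0.071 in CD34+ cells (edgeR adjusted p = 1 and 0.966) and mice split 2 to 2 in both. Azin2 changed by 0.077 ± 0.18 in CD34− and −0.33 ± 0.18 in CD34+ cells on the log2 scale (edgeR adjusted p = 0.943 and 0.461). In CD34+ cells it was lower with N1-AcSpd in 4 of 4 mice, with overlapping ranges. Odc1 was lower with N1-AcSpd in 4 of 4 mice of both cell types, with differences of −12.8% in CD34− and −7.44% in CD34+ cells, and was not called in either (edgeR adjusted p = 0.362 and 0.685) or on average (0.181), the last becoming a call without mouse 1 of the untreated CD34− group (0.0489).

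Oaz3, the antizyme of haploid male germ cells, was close to absent (ENSMUSG00000028141, chromosome 3, 94432414 to 94443915, minus strand). In untreated CD34− libraries its counts in mice 1 to 4 were 2, 6, 2 and 1 UMIs, and in N1-AcSpd CD34− libraries 1, 17, 13 and 13 UMIs. Untreated CD34+ libraries held 0, 0, 2 and 2 UMIs, and N1-AcSpd CD34+ libraries 11, 2, 0 and 1 UMIs. Of the 73 UMIs in all, 44 came from the N1-AcSpd CD34− group, where mouse 1 had a single tag. A library at 0 allows up to 3 counts, that is 0.164 to 0.184 CPM in the 3 libraries concerned, and such limits cover counting error only. Without the filter on low counts, Oaz3 had a log2 fold change of 1.47 with N1-AcSpd on average and was not called by edgeR (adjusted p = 0.415).

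The Oaz3 locus overlaps other genes. Tdrkh, on the opposite strand, shares 2255 bases with it and held 4, 6, 10 and 10 UMIs in untreated CD34− libraries, 3, 25, 13 and 14 in N1-AcSpd CD34−, 0, 4, 4 and 7 in untreated CD34+ and 14, 5, 4 and 2 in N1-AcSpd CD34+ libraries. The library with most Oaz3 tags was also the one with most Tdrkh tags in both N1-AcSpd groups but not in untreated CD34− cells, and in untreated CD34+ cells mice 3 and 4 tied for Oaz3. Mrpl9, a mitochondrial ribosomal protein gene that shares 598 bases on the opposite strand, held 339 to 868 UMIs. Whether the counting used strand is not given in the sources used here, so Oaz3 tags cannot be told apart from tags of these neighbours. The genes that overlap Azin1 held few tags over all libraries, 10 for Mir6951 and 29 for the antisense gene Gm49077, and the antisense gene Gm15904 in Azin2 held 1. Of the germ cell markers Prm1, Prm2 and Tnp1 were not listed, Odf1 had 1 UMI and Acrv1 had 250 UMIs over all libraries.

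Ratios within a library do not depend on scaling, and they are given as a description without a test; gene length cancels when the same ratio is compared between groups. Per Odc1 UMI there were 10.5 ± 1.66 Oaz1 UMIs in untreated CD34−, 12.1 ± 0.677 in N1-AcSpd CD34−, 16.5 ± 0.790 in untreated CD34+ and 19.0 ± 1.54 in N1-AcSpd CD34+ libraries (mean ± SD, n = 4). All CD34+ libraries, at 15.8 to 20.8, were above all CD34− libraries, at 9.01 to 13.1. Odc1 alone, which is part of this ratio, already separated the same libraries. Oaz2 UMIs per Odc1 UMI were 0.182 ± 0.0345, 0.204 ± 0.00755, 0.404 ± 0.0334 and 0.431 ± 0.0528 in the same order of groups. Antizyme UMIs per inhibitor UMI were 65.6 ± 2.80, 75.3 ± 4.19, 70.8 ± 3.67 and 96.2 ± 6.29. The N1-AcSpd CD34+ libraries, at 89.7 to 102, stood above the other 12, which lay between 62.9 and 79.4. Azin1 and Oaz1, which are part of this ratio, each separated the same libraries alone. Azin1 lay at 5.64 to 7.30 CPM there and at 7.47 CPM or more elsewhere. Oaz1 lay at 763 to 826 CPM there and at 758 CPM or less elsewhere. Tags of Oaz1-ps, with 3020 UMIs in mouse 2 of the N1-AcSpd CD34− group, were not counted. The separation thus covers only tags assigned to Oaz1 itself.

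**Figure D3:**
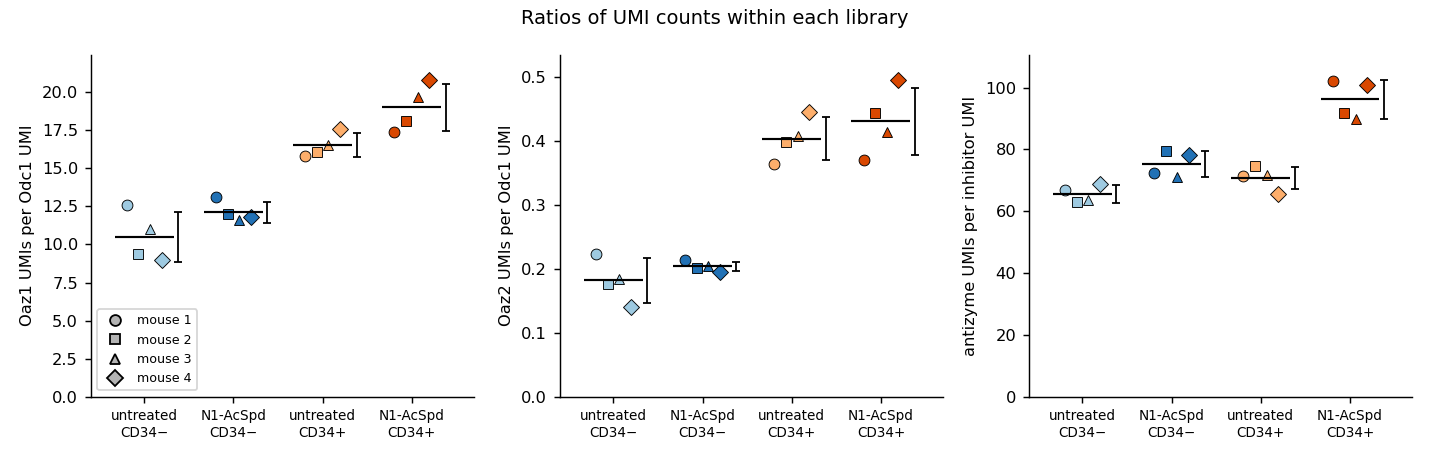
UMI ratios within each library (vertical axes, linear from 0) by group, with 1 marker shape per mouse, the mean (line) and the SD (bar, n = 4). Both antizyme to Odc1 ratios separate CD34+ from CD34− libraries, and the antizyme to inhibitor ratio is highest, at 89.7 to 102, in the N1-AcSpd CD34+ libraries. Tags of the pseudogene Oaz1-ps are not counted in these ratios.

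The rest of the polyamine pathway gives the setting in which the members moved. The list counts below stand beside 32.1% (untreated) and 33.1% (N1-AcSpd) of all tested genes called between cell types. For treatment edgeR called 0.546% of genes in CD34− cells, 0.299% in CD34+ cells and 4.95% on average. DESeq2 called 5.32%, 6.33% and 10.2% of the genes it adjusted, in that order. An unadjusted edgeR p under 0.05 was reached by 13.4% of genes in CD34− and 13.0% in CD34+ cells. Of 7 genes of polyamine synthesis 6 were tested, and 4 were called lower and 0 higher in HFSCs in each condition; the list's median log2 fold change was −0.38 in untreated and −0.37 in N1-AcSpd cells, against 0.022 and −0.0068 over all genes. Srm, spermidine synthase, had the smallest p, with 42.3 to 47.1 CPM in untreated CD34− and 27.6 to 34.0 CPM in untreated CD34+ libraries. Its log2 fold change was −0.51 ± 0.071 (edgeR adjusted p = 8.43e-05) in untreated and −0.46 ± 0.071 (adjusted p = 0.000165) in N1-AcSpd cells. The others called were Odc1, Sms (spermine synthase) and Arg1 (arginase 1). In untreated cells the count called lower fell from 4 to 2 with only the compared groups in the fit. In N1-AcSpd cells it fell to 2 without mouse 4 and at an adjusted p under 0.01. With N1-AcSpd, Amd1, which makes the aminopropyl donor for spermidine and spermine, was called lower in CD34− cells (−0.31 ± 0.061, adjusted p = 0.0388) and on average (−0.29 ± 0.043, adjusted p = 0.0032), and no other gene of the list was called in these 2 comparisons. On average Srm lay just beyond the threshold (0.18 ± 0.050, edgeR adjusted p = 0.0512), and it was called higher with mouse as a block (edgeR adjusted p = 0.0194) and by DESeq2 (0.0105). In CD34+ cells edgeR called 0 of the 6, although 2 had an unadjusted p under 0.05. DESeq2 called Amd1 there (adjusted p = 0.00697). The CD34− call of Amd1 was lost by edgeR in 14 of the 20 fits that left out a library or a mouse (adjusted p up to 0.199), without the filter on low counts (0.0691), after thinning (0.054) and with only the compared groups (0.0764), while the averaged call held in all 20.

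Among 4 genes of acetylation and oxidation, 1 was called higher (Paox) and 2 lower (Sat1 and Smox) in HFSCs in each condition, with list medians of −0.19 and −0.17. Paox encodes the oxidase that acts on acetylated polyamines, and its log2 fold change was 0.33 ± 0.083 (edgeR adjusted p = 0.00714) in untreated and 0.26 ± 0.083 (adjusted p = 0.0247) in N1-AcSpd cells. Smox encodes spermine oxidase and was lower by a log2 fold change of −0.82 ± 0.13 (adjusted p = 0.000213) in untreated HFSCs. Sat1, the acetyltransferase that makes N1-AcSpd, was lower in N1-AcSpd HFSCs (−0.86 ± 0.12, adjusted p = 7.57e-05). With N1-AcSpd, Sat1 rose in CD34− cells, from 101 to 123 CPM in untreated to 149 to 209 CPM in treated libraries (0.60 ± 0.12, adjusted p = 0.039), and on average (0.53 ± 0.085, adjusted p = 0.00475); it was the only gene of the 4 called for treatment. In CD34+ cells edgeR called 0 of the 4, with 1 at an unadjusted p under 0.05, and Sat1 was called higher there with mouse as a block (0.45, edgeR adjusted p = 0.00489) and by DESeq2 (0.00805). The CD34− call of Sat1 was lost by edgeR in 17 of the 20 fits with a library or mouse left out (adjusted p up to 0.179), without the filter on low counts (0.0750) and with only the compared groups (0.109), while the averaged call held in all 20. The Paox call in N1-AcSpd cells was lost in 8 of 20 such fits (up to 0.193) and with only the compared groups (0.0602).

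Of 11 transport genes 7 were tested; in HFSCs 3 were called higher and 2 lower in untreated cells, and 3 higher and 1 lower in N1-AcSpd cells. The list's medians were 0.27 and 0.40. Slc3a2, the heavy chain of amino acid transporters that also takes part in polyamine export, was higher in HFSCs in both conditions. Its log2 fold change was 0.41 ± 0.081 (edgeR adjusted p = 0.00138) in untreated and 0.395 ± 0.081 (adjusted p = 0.00162) in N1-AcSpd cells. Atp13a4, a P5-type ATPase, was lower in both conditions (−2.58 ± 0.34, adjusted p = 4.71e-05, and −1.70 ± 0.31, adjusted p = 0.000695). Cav1, caveolin 1, was higher in untreated (0.31 ± 0.071, adjusted p = 0.00365) and in N1-AcSpd HFSCs (0.46 ± 0.071, adjusted p = 0.000161). It was also the 1 transport gene called for treatment, lower on average (−0.25 ± 0.050, adjusted p = 0.0135). That call was lost without mouse 1 (edgeR adjusted p = 0.111), mouse 2 (0.115) or mouse 3 (0.0776). In CD34− and in CD34+ cells edgeR called 0 of the 7, with 2 at an unadjusted p under 0.05 in each, and DESeq2 called 1 (Cav1, lower) and 0. With mouse as a block edgeR also called Cav1 lower in CD34− cells (adjusted p = 0.0241), Atp13a4 higher with N1-AcSpd on average (0.0469), and the transporter gene Slc18b1 higher in N1-AcSpd HFSCs (0.0317).

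The 4 genes of hypusination, the spermidine-dependent modification of the translation factor eIF5A, had 2 called lower and 0 higher in untreated HFSCs, and 2 lower and 1 higher in N1-AcSpd HFSCs (list medians −0.18 and −0.049). Eif5a was lower in HFSCs in both conditions (−0.31 ± 0.033, edgeR adjusted p = 7.37e-06, and −0.21 ± 0.033, adjusted p = 0.000221), and on average higher with N1-AcSpd (0.088 ± 0.023, adjusted p = 0.0435). The treatment call was lost without the filter on low counts (edgeR adjusted p = 0.0951), after thinning (0.0573) and in 16 of the 20 fits with a library or mouse left out (up to 0.16). With library totals the N1-AcSpd cell type difference was −0.089 and was not called (adjusted p = 0.0519). Eif5a2, its rarer paralog, was the gene called higher, in N1-AcSpd HFSCs (0.76 ± 0.25, adjusted p = 0.0281), a call that DESeq2 did not make (adjusted p = 0.0828) and that was lost with mouse as a block (edgeR adjusted p = 0.0509) and in 8 of 20 fits with a library or mouse left out (up to 0.205).

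Antizyme is also described as binding proteins other than ornithine decarboxylase, and 5 such genes were listed. In untreated HFSCs 3 were called higher and 1 lower, and in N1-AcSpd HFSCs 4 higher and 1 lower, with list medians of 0.37 and 0.67 on the log2 scale. For treatment edgeR called 0 of the 5 in CD34− cells, in CD34+ cells and on average, and DESeq2 0, 1 and 0. An unadjusted p under 0.05 was reached by 1 in CD34− and 2 in CD34+ cells, beside 13.4% and 13.0% of all genes. On average 2 reached it, where the share of all genes is not given here. Trp73, a p53 family transcription factor, held 3.55 to 4.60 CPM in untreated CD34− and 6.99 to 10.5 CPM in untreated CD34+ libraries (log2 fold change 1.10 ± 0.14, edgeR adjusted p = 4.87e-05). It was also higher in N1-AcSpd HFSCs (1.51 ± 0.15, adjusted p = 2.60e-06). Ccnd1, cyclin D1 of the cell cycle, was the gene lower in HFSCs (−0.47 ± 0.091, adjusted p = 0.00126, and −0.63 ± 0.091, adjusted p = 9.19e-05).

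**Figure D4:**
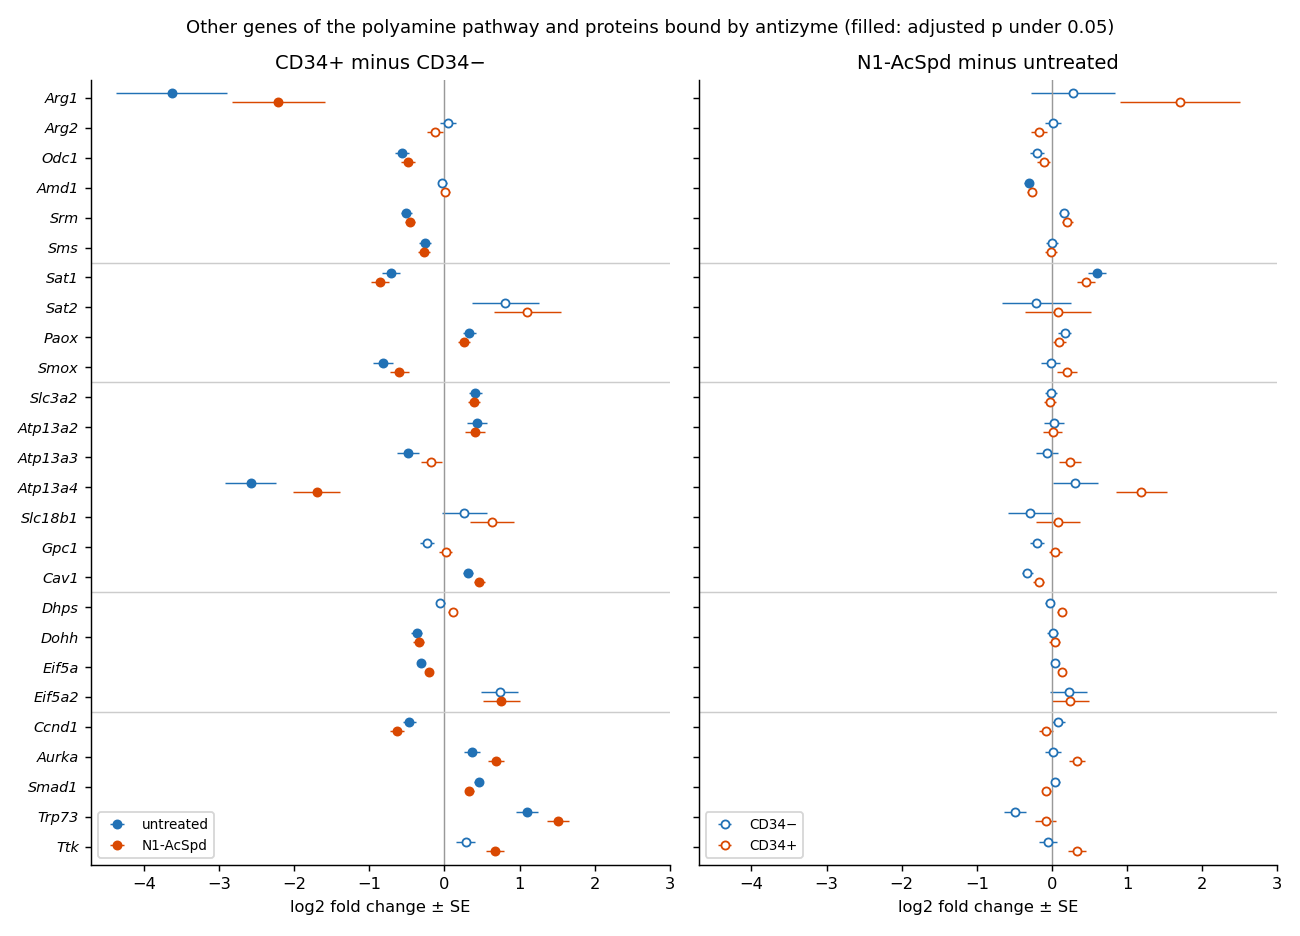
Log2 fold change with its SE (horizontal axes) for each tested gene of synthesis, acetylation and oxidation, transport, hypusination and other antizyme-bound proteins, from top to bottom, separated by grey lines. Filled points were called at an adjusted p under 0.05; cell type differences fill many rows on the left, while on the right Amd1 and Sat1 in CD34− cells are the filled points.

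The genes nearest in profile to the members are given as a description. Likeness was measured as the root mean square difference of log2 CPM over the 16 libraries after centring each gene, among genes whose count averaged 50 or more. Over 9396 genes the nearest to Oaz1 were Ppp1cc (a catalytic subunit of protein phosphatase 1), Puf60 (a splicing factor) and Nono (a nuclear RNA-binding protein), with differences of 0.041 to 0.042 against a median of 0.19. Nearest to Oaz2 were Tjap1, a tight junction-associated protein, Gpsm2, which orients the mitotic spindle, and Ints9, a subunit of the Integrator complex, at 0.080 to 0.086 against a median of 0.34. Azin1 was most like Aff4 (a transcription elongation factor), Flna (filamin A) and Ptpre (a tyrosine phosphatase), at 0.099 to 0.11 against a median of 0.27. These values are descriptions over libraries that share mice. Azin2 and Oaz3 were under the minimum count.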

How the data were processed

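Libraries were grouped by the labels' cell marker and treatment, and the label for the mouse paired them across groups. The authors separated reads by barcode with FLEXBAR, pseudo-aligned the second read with kallisto (0.45.0 in the submitters' processing notes) to mm10, assigned tags with BEDTools and deposited unique UMI counts per gene, without normalization; an empty cell was read as 0. Symbols and positions came from GENCODE release M21 on GRCm38, the assembly also called mm10.

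Tests ran in edgeR 4.0.16 (R 4.3.3) on TMM-scaled counts with the quasi-likelihood method, as 1 fit of 16 libraries and of genes whose count averaged 5 or more, with Benjamini-Hochberg adjustment over all 19049 genes and two-sided p-values. Each SE is the absolute log2 fold change over the square root of F. DESeq2 1.42.0, which the study used, other scalings and filters, mouse as a block, thinning, a sum with named pseudogenes and leaving out libraries or mice were alternatives. The script was tested on simulated data. Because 1 mouse gave 1 library per group, replicate numbers pair the samples; deviations of same-mouse libraries from their group means had correlations between −0.069 and 0.086 over 24 pairs, with 0.013 as their mean. Libraries of a group differed by a chi-square of 25.4 or more per degree of freedom, so none was a copy.

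All 5 members, Odc1 and, per pathway list, the called gene with the smallest p in each direction were named; for likeness the 3 nearest genes, without unnamed gene models or overlapping genes. The members and lists were chosen with earlier results of these data known. The list counts and named list genes under each alternative were added after seeing the data.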

Additional observations from a re-analysis of the deposited data

Results flagged for a closer look

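Of the 24 sets of 4 libraries (the members and Odc1 in each group), 1 held a library far from the others: for Oaz3 in untreated CD34− cells the gap of the highest library to the next was 0.877 of the group's range. That library, from mouse 2, held 6 UMIs against 2, 2 and 1. Chance alone marks about 1 in 20 such sets.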

How the results depend on the processing

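The number of members called stayed within 1.5 times in most alternatives. For N1-AcSpd in CD34+ cells it was 1 with DESeq2 (Oaz1) and 1 with mouse as a replicate block (Azin1), against 0, and on average 2 with DESeq2 and 2 with the block (Oaz1 and Azin1), against 1; the block, which uses the pairing by mouse, changed no other call of a member or of Odc1. Leaving out each library or mouse gave 1 to 3 called members for the untreated cell type effect, 2 to 3 with N1-AcSpd, 0 to 0 for treatment in CD34− cells, 0 to 1 in CD34+ cells, 0 to 1 on average and 0 to 0 for the interaction. Signs turned only for differences that were not called. The Azin1 difference between untreated cell types was 0.0026 with library totals, Oaz2 with N1-AcSpd in CD34− cells was 0.0032 with DESeq2, 0.0042 with library totals and 0.018 after thinning, and the Oaz1 interaction was −0.053 when summed with its pseudogene, all on the log2 scale. When libraries or mice were left out, log2 fold changes ran from −0.076 to 0.27 for Azin2 between N1-AcSpd cell types and from −0.0048 to 0.17 for its treatment in CD34− cells, and for Oaz2 from −0.048 to 0.036 for treatment in CD34− cells, −0.068 to 0.041 in CD34+ cells, −0.046 to 0.014 on average and −0.070 to 0.054 for the interaction. The cause of these changes was not tested. Over all genes, treatment calls were 104 in CD34− cells, 57 in CD34+ cells and 942 on average, against 558, 431 and 1546 with DESeq2, 408, 176 and 1565 with the block, 48, 36 and 562 without a filter, 0 and 19 with only the compared groups, and 66 in CD34− cells after thinning. An adjusted p under 0.01 left 19, 15 and 191, and 4008 of 6112 calls between untreated cell types. Treatment calls ran from 3 to 162, 3 to 69 and 195 to 1065 with libraries or mice left out. Interaction calls were 0, against 71 with DESeq2. At an adjusted p under 0.01 the Azin2 cell type call in untreated and the Azin1 call in N1-AcSpd cells ended. Low counts limit Azin2 and Oaz3, and shared sequence limits Oaz1.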
